A study of Homo sapiens with 95 samples.

Results

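The 50 genes described here build and drive mitosis: the CDK1-cyclin engine, the mitotic kinases, the spindle checkpoint, the kinetochore, the spindle motors, the midzone and the condensed chromosome. They were listed by symbol and role, and a symbol was kept where its mean raw count over the 95 count tables was at least 1. All 50 passed, of 27978 gene symbols in the tables, and none of their 4750 values was 0. Cells switch most of these genes on together late in the cell cycle, from promoters bound by the DREAM and B-MYB-MuvB complexes and FOXM1, and switch them off when they leave the cycle. Their summed level is therefore widely read as a sign of how many cells in a culture are dividing, as in the use of MKI67 (the Ki-67 antigen) in pathology. In a lysate of a whole well, fewer dividing cells and less of each RNA per dividing cell cannot be told apart.

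The samples came from AALE, a cell line immortalized from human bronchial epithelium, measured by sparse full length (SFL) sequencing, in which barcoded, ribosomal-RNA-depleted libraries are pooled. FAT1 and CDKN2A had been knocked out with CRISPR, with cells given the Cas9-EGFP plasmid and no guide (GFP) as their control. NRF2 (the gene NFE2L2), FGFR1, NRG1 and PIK3CA had been overexpressed, with an empty vector carrying the reporter HcRed (HCRED) as control. Cells of each of the 8 genotypes were plated in 24-well plates and given 24 h to become confluent. They then received cigarette smoke condensate (CSC, 24 μg/ml), benzo[a]pyrene (BaP, 173 μM), the tobacco nitrosamine NNK (490 μM) or the vehicle DMSO. How long the exposure lasted, and whether a knockout line was a single clone, is not given in the sources used here. There were 3 libraries for each of 31 genotype and treatment combinations and 2 for FGFR1 with CSC. The study describes these as biological replicates; which step of the culture they were separated at is not given in the sources used here, and p-values measure only the spread between these libraries, part of which may be technical.

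The libraries held 287446 to 2116383 counted reads, with medians of 1051108 in DMSO, 825587 in CSC, 836088 in BaP and 753703 in NNK. Levels are given as CPM, each read count per 1e6 counted reads, with TMM scaling. A count of 3 reads corresponded to between 1.42 and 10.4 unscaled CPM, by library, and intervals and limits of this kind cover counting error only. The targeted gene separated each perturbed line from its control in every sample. FAT1, for instance, lay at 66.5 to 129 CPM in the FAT1 line and 260 to 451 CPM in GFP. All 12 airway basal epithelial markers looked for were present, with a summed level of 10310 to 17960 CPM in DMSO, 8527 to 15250 in CSC, 8061 to 15070 in BaP and 11130 to 19970 in NNK. Of 8 fibroblast markers, 2 reached a mean of 1 read per library, and the summed level of the list was 9.21 to 34.9 CPM in DMSO, 14.1 to 57.0 in CSC, 12.5 to 66.9 in BaP and 13.8 to 52.9 in NNK. Its median was 18.6 CPM in DMSO, 35.1 in CSC, 30.6 in BaP and 32.4 in NNK, and 1 of the 2 tested genes rose with CSC and both with BaP and NNK. Of the basal markers, 4 rose and 6 fell with CSC, 3 rose and 8 fell with BaP, and 6 rose and 3 fell with NNK. Of 7 blood and endothelial markers, 1 had such a mean and 1 was at 0 in every library. The summed level of that list was 4.83 to 18 CPM in DMSO, 6.63 to 38.8 in CSC, up to 33.4 in BaP and 4.11 to 24.2 in NNK. The part of these marker genes in the results below was not tested.

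The promoters of the 50 genes show what they share outside the list. In RefSeq windows from 250 bases before to 50 bases after the transcription start (build GRCh38.p14), 43 of the 50 genes were found, with 55 windows. BUB3, UBE2C, TPX2, FOXM1, BIRC5, TTK and AURKA were not among them. The cell cycle genes homology region (CHR), searched as TTTGAA on either strand, was present in 67.3% of these windows, belonging to 34 genes, against 15.2% of all 35116 windows and 10.5% of the windows of tested genes. Within 50 bases of the start it was present in 52.7% against 4.62% of all windows. The CCAAT box (CCAAT, either strand), the site of NF-Y, was present in 70.9% against 34.6%. Both were present in 52.7% against 5.9%. The E2F forms TTTGGCGC and TTTCGCGC were rare, at 1.82% and 3.64% of the windows of the 50 genes against 0.652% and 0.515% of all windows. A CHR and a CCAAT match can share bases where their ends meet, but neither contains the other. A match is a run of letters and was not tested as a binding site.

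Printed here are the 100 bases before and 20 bases from the start of CCNB1 and PLK1, the genes that mark this list, and of the 6 genes with the largest change with CSC among those with the CHR in this stretch and near the start. Capitals mark CHR and CCAAT letters on either strand, and each sequence reads 5′ to 3′ along the gene's own strand. The CCNB1 stretch lies at chr5:69167050-69167169 (+), PLK1 at chr16:23678789-23678908 (+), HMMR at chr5:163460532-163460651 (+) and NDC80 at chr18:2571457-2571576 (+). SPC25 lies at chr2:168890411-168890530 (-), SMC2 at chr9:104094209-104094328 (+), DLGAP5 at chr14:55191566-55191685 (-) and CDK1 at chr10:60778378-60778497 (+).
CCNB1: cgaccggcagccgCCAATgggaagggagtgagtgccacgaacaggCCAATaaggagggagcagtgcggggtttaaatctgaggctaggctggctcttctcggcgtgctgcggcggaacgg
PLK1: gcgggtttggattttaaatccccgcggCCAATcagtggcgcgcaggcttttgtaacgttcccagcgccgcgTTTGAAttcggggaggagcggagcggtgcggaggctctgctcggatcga
HMMR: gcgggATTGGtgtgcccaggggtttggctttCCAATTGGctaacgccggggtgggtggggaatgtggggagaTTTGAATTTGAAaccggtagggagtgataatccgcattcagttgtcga
NDC80: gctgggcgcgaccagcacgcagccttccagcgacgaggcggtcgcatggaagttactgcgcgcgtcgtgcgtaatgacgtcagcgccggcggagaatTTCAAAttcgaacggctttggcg
SPC25: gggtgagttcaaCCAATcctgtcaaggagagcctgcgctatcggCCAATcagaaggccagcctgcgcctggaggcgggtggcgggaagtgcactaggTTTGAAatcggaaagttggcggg
SMC2: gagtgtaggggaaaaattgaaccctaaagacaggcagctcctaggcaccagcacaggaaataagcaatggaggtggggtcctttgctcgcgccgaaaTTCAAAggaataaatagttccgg
DLGAP5: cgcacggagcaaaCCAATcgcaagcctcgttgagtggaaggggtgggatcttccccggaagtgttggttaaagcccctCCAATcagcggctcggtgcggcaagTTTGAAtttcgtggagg
CDK1: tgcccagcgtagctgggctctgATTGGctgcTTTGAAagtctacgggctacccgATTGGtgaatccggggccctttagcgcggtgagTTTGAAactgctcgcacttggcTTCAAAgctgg

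In the PLK1 stretch the CHR began 29 bases before the start and the CCAAT box 73 bases before it. CCNB1 had CCAAT boxes beginning 87 and 55 bases before the start and no TTTGAA in the window. HMMR had the CHR in tandem, beginning 28 and 22 bases before the start.

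Taken per length of the longest annotated transcript, levels over all 95 libraries ran from TOP2A, the topoisomerase that untangles chromosomes, at 204 CPM per kb to MAD2L1, a spindle checkpoint protein, at 7.89 CPM per kb. ANLN (anillin, of the cleavage furrow), TPX2, SMC4, MKI67 and CCNB1 followed TOP2A at 165, 149, 121, 120 and 116 CPM per kb. PLK1 stood at 19.8 CPM per kb. Which transcript was expressed was not determined, so ranks depend on the length taken, 5227 bases for MAD2L1 and 4135 for PLK1. In mean CPM MAD2L1, at 41.2, lay above CDCA3, CENPA, SPC25 and CDC25C, at 25.67, 26.57, 28.89 and 38.15. The lowest mean counts were those of CDCA3, CENPA and SPC25, at 24.5, 25.1 and 28.2 reads, so these genes were measured least precisely. Together the 50 genes took between 0.798% and 1.96% of a library's counted reads. KIF4A and PTTG1 have near-identical copies elsewhere in the genome (KIF4B, PTTG2 and PTTG3P), and their counts are uncertain to that extent.

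Most of the 50 genes were lower after each of the 3 tobacco chemicals than after DMSO. With CSC, 41 fell and 1 rose, with BaP 40 fell and 1 rose, and with NNK 37 fell and 4 rose, by limma-voom on all 95 libraries with genotype as a covariate and a Benjamini-Hochberg adjusted p under 0.05. Of all 14384 genes tested, 26% were lower and 27.4% higher with CSC, 24.4% and 25.9% with BaP, and 25.8% and 26.3% with NNK. The median log2 fold change of the 50 genes was -0.49 with CSC, -0.37 with BaP and -0.29 with NNK, against 0.00, 0.01 and 0.00 over all genes tested. The 3 comparisons share the same 24 DMSO libraries, so they are not independent of each other. Transcript GC content, taken up further on, moved with these changes across genes.

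**Figure D1:**
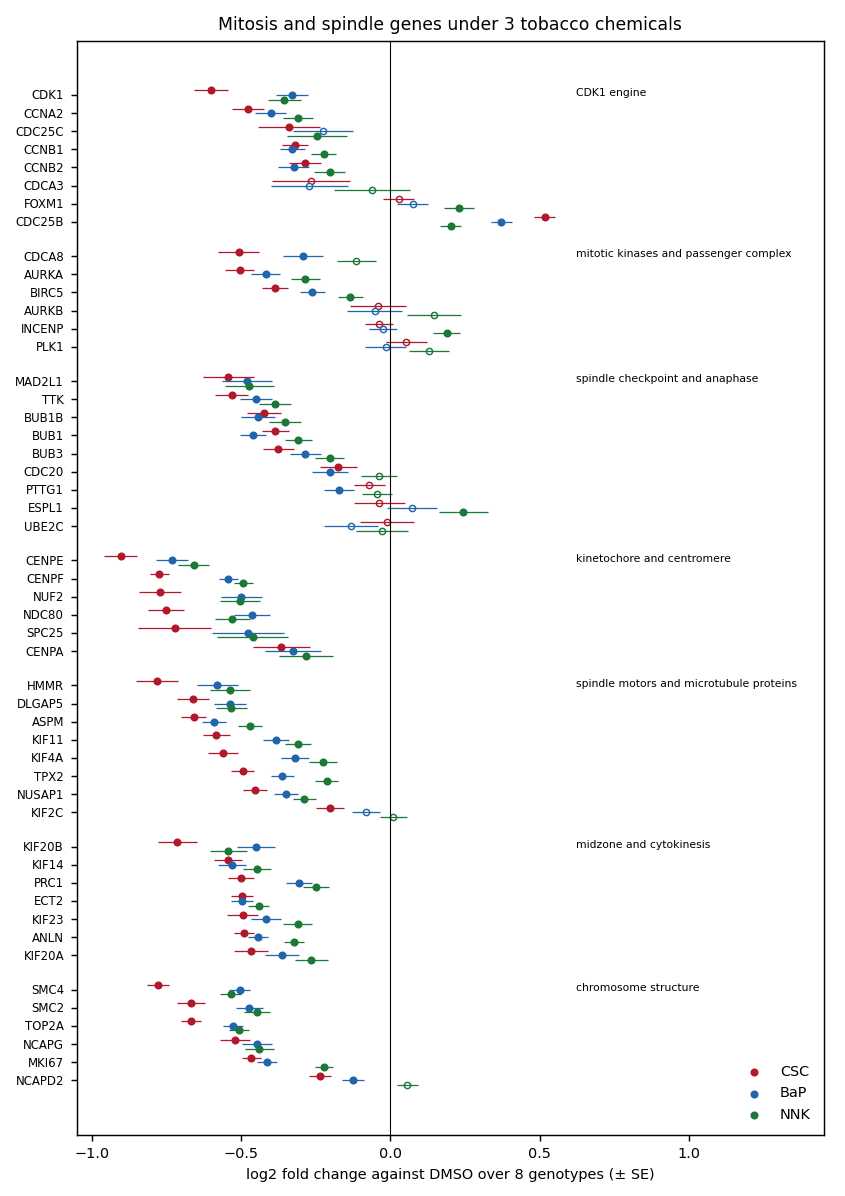
Log2 fold change against DMSO over 8 genotypes (x axis, bars are standard errors) of each of the 50 genes, grouped by role, for CSC (red), BaP (blue) and NNK (green); filled points passed an adjusted p of 0.05 and open points did not. CENPE is the lowest point, at -0.90 with CSC, and CDC25B the highest, at 0.52.

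The kinetochore, which ties chromosomes to spindle fibres, gave the largest group median as fitted. All 6 of its listed genes fell with each of the 3 chemicals, with medians of -0.76 for CSC, -0.49 for BaP and -0.50 for NNK. CENPE, the kinetochore motor, lay at 327 to 880 CPM (median 571) in DMSO, 190 to 472 (median 314) in CSC, 200 to 517 (median 365) in BaP and 161 to 657 (median 352) in NNK. The highest CSC and BaP samples lay below the DMSO median, although the ranges overlapped across genotypes. CENPE fell by 0.90 ± 0.05 (SE, log2, limma adjusted p = 2.93e-32) with CSC, by 0.73 ± 0.05 (3.19e-25) with BaP and by 0.66 ± 0.05 (1.93e-22) with NNK. NDC80, NUF2 and SPC25, which form the microtubule-gripping NDC80 complex, fell by 0.75, 0.77 and 0.72 with CSC. The large kinetochore protein CENPF, the most abundant of the group, fell from a median of 1423 CPM in DMSO to 831, 909 and 994 CPM in CSC, BaP and NNK.

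Of the spindle motors and microtubule proteins, with medians of -0.57, -0.37 and -0.30, all 8 fell with CSC, and 7 of 8 with BaP and with NNK, the exception being the depolymerase KIF2C (-0.08 and 0.01). HMMR, which organizes spindle poles, fell by 0.78 ± 0.07 with CSC (limma adjusted p = 2.36e-19), by 0.58 with BaP and by 0.54 with NNK. ASPM, a spindle pole protein, fell by 0.59 ± 0.04 (limma adjusted p = 3.67e-27) with BaP. DLGAP5, which stabilizes kinetochore fibres, fell by 0.54 with BaP and 0.53 with NNK. TPX2, the activator of AURKA on the spindle, had medians of 586 CPM in DMSO, 398 in CSC, 470 in BaP and 506 in NNK.

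All 7 genes of the midzone and cytokinesis fell with each chemical, with medians of -0.50, -0.44 and -0.32. KIF20B, a midbody motor, fell by 0.71 with CSC and 0.54 with NNK, and KIF14 by 0.53 with BaP. ANLN had medians of 940 CPM in DMSO, 675 in CSC, 678 in BaP and 745 in NNK, with falls of 0.49, 0.44 and 0.32. Of the 6 chromosome structure genes, with medians of -0.59, -0.46 and -0.44, all fell with CSC and with BaP, and 5 with NNK, where the condensin subunit NCAPD2 was at 0.06 (limma adjusted p = 0.175). The condensin subunit SMC4 fell by 0.78, 0.50 and 0.54 with CSC, BaP and NNK, and TOP2A by 0.67, 0.53 and 0.51. MKI67, with medians of 1915 CPM in DMSO, 1400 in CSC, 1401 in BaP and 1634 in NNK, fell by 0.47, 0.41 and 0.22.

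The CDK1 engine was split. CDK1 itself, the kinase that starts mitosis, fell by 0.60 with CSC, 0.33 with BaP and 0.36 with NNK, and its partner cyclin A2 (CCNA2) by 0.48, 0.40 and 0.31. CCNB1, the cyclin B1 that carries CDK1 into mitosis, lay at 213 to 359 CPM (median 277) in DMSO, 117 to 282 (median 223) in CSC, 144 to 297 (median 212) in BaP and 165 to 312 (median 225) in NNK. The ranges overlapped across genotypes. CCNB1 fell by 0.32 ± 0.04 with CSC, 0.33 ± 0.04 with BaP and 0.22 ± 0.04 with NNK (limma adjusted p = 2.78e-10, 7.62e-11 and 3.26e-06).

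CDC25B, the phosphatase that gives CDK1 its first activation, moved the other way. Its level was 163 to 266 CPM (median 203) in DMSO, 273 to 330 (median 298) in CSC, 207 to 338 (median 272) in BaP and 204 to 298.9 (median 236) in NNK. Every CSC library lay above every DMSO library, whatever the genotype. The rise was 0.52 ± 0.04 with CSC, 0.37 ± 0.04 with BaP and 0.20 ± 0.04 with NNK (limma adjusted p = 2.18e-27, 1.2e-17 and 3.86e-07). FOXM1, the transcription factor of late cell cycle genes, was at 0.03 with CSC and 0.07 with BaP, and rose by 0.23 with NNK (limma adjusted p = 5.87e-05).

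The mitotic kinases and chromosomal passenger proteins changed least as fitted, an order that depended on the GC content trend taken up further on. AURKA, the spindle pole kinase, fell by 0.51, 0.42 and 0.29 with CSC, BaP and NNK, and the passenger protein BIRC5 (survivin) by 0.39, 0.26 and 0.13. PLK1, which triggers mitotic entry, lay at 34.8 to 125 CPM (median 86.0) in DMSO and 33.4 to 135 (median 87.5) in CSC, almost the same ranges. Its change was 0.05 ± 0.07 with CSC, -0.02 ± 0.07 with BaP and 0.13 ± 0.07 with NNK, none of which passed the limma test (adjusted p = 0.539, 0.861 and 0.0976). AURKB (-0.04, -0.05 and 0.15) did not pass either. INCENP, the passenger scaffold, passed with NNK alone of the 3, rising by 0.19.

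In the spindle checkpoint and anaphase group, 6 of 9 genes fell with CSC, 7 with BaP and 5 with NNK. The checkpoint proteins MAD2L1, TTK, BUB1B, BUB1 and BUB3 fell with all 3 chemicals, by 0.54, 0.53, 0.42, 0.39 and 0.38 with CSC. BUB3, the most abundant, had medians of 230 CPM in DMSO, 174 in CSC, 182 in BaP and 187 in NNK. The anaphase genes changed less as fitted. UBE2C, the ubiquitin-conjugating enzyme of the anaphase-promoting complex, was at -0.01, -0.13 and -0.03, and ESPL1 (separase) was at -0.04 with CSC and 0.07 with BaP and rose by 0.24 with NNK (limma adjusted p = 0.00796).

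The fall appeared in every genotype. The mean log2 CPM of the 50 genes, given as a description, ranged from 7.25 to 8.01 (median 7.66) in the 24 DMSO libraries, 6.60 to 7.49 (median 7.26) in 23 CSC libraries, 6.74 to 7.62 (median 7.32) in 24 BaP libraries and 6.78 to 7.85 (median 7.39) in 24 NNK libraries. These ranges overlapped only across genotypes. In each of the 24 genotype and chemical combinations, all treated libraries lay below all DMSO libraries of their genotype. Between 38 and 49 of the 50 genes had a lower mean than in DMSO in a combination. With CSC, 36 genes were lower in all 8 genotypes, with BaP 38 and with NNK 35. Neither kind of count was made for all tested genes, so how far they exceed a general share is not known. The difference from DMSO was largest for CSC in the CDKN2A line, at -0.63, and in the PIK3CA line, at -0.56, and smallest for BaP in HCRED cells, at -0.21.

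**Figure D2:**
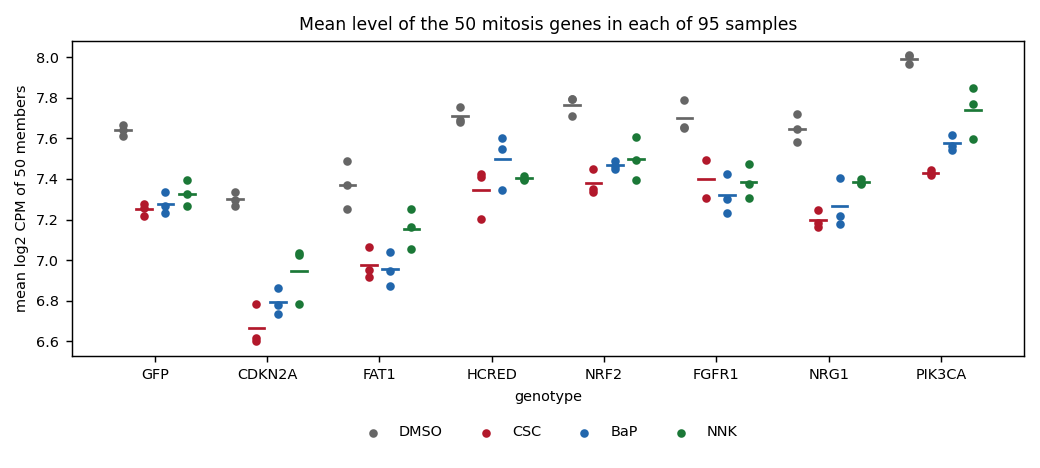
Mean log2 CPM of the 50 genes (y axis) in each of 95 libraries (points), by genotype and treatment; horizontal lines are group means. The treated libraries sit below the DMSO libraries in every genotype, CDKN2A cells with CSC sit lowest (6.60 to 6.79) and PIK3CA cells in DMSO highest (7.97 to 8.01).

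**Figure D3:**
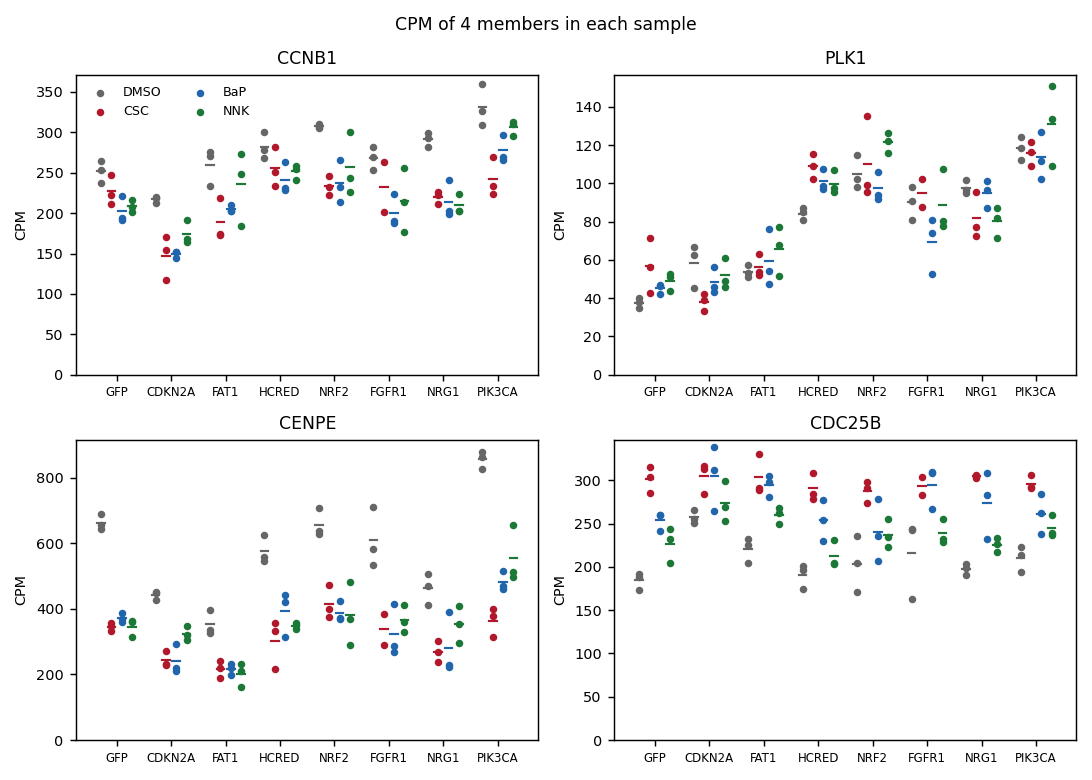
CPM (y axis, linear, from 0) of CCNB1, PLK1, CENPE and CDC25B in each library (points) by genotype (x axis) and treatment (colour); horizontal lines are group means. CENPE drops and CDC25B rises with treatment, while PLK1 separates the genotypes (34.8 to 40.3 CPM in GFP and 112 to 125 in PIK3CA, both in DMSO) more than the treatments.

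The 3 chemicals differed among themselves in the size of the fall, at 1 dose each. Of the 50 genes, 31 were higher and 1 lower with NNK than with CSC, where 10.9% and 11.8% of all genes were higher and lower, and the median difference was 0.19. With BaP against CSC, 17 were higher and 1 lower, against 6.52% and 8.13% of all genes, with a median of 0.09. With BaP against NNK, 1 was higher and 9 lower, against 5.48% and 6.17%, with a median of -0.09. The count for BaP against CSC went to 9 in all without replicate 1, and that for BaP against NNK to 4 without replicate 3 and 6 without replicate 2. Over all tested genes these counts went from 2107 to 1291, and from 1675 to 1016 and 979. NDC80 was 0.29 ± 0.06 higher with BaP than with CSC (limma adjusted p = 0.000277), and the passenger protein CDCA8 0.39 ± 0.07 higher with NNK than with CSC (2.03e-06). MKI67 was lower with BaP than with NNK by 0.19 ± 0.03 (limma adjusted p = 1.54e-06). CDC25B was highest with CSC, the difference being -0.15 for BaP against CSC and -0.31 for NNK against CSC. CCNB1 and PLK1 did not pass in any of the 3 comparisons, at -0.01 and -0.07 for BaP against CSC, 0.10 and 0.08 for NNK against CSC, and -0.10 and -0.14 for BaP against NNK.

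GC content moved with the treatment changes. Across the 50 genes, the log2 fold change correlated with the GC content of the longest transcript at Pearson r = 0.85 for CSC, 0.87 for BaP and 0.93 for NNK. Across the 13487 tested genes with known GC content r was 0.65, 0.67 and 0.72. Between chemicals, the tested genes gave r of -0.08 (BaP against CSC), -0.03 (NNK against CSC) and -0.05 (BaP against NNK). Over the 50 genes these were -0.49, -0.14 and -0.49. Genes are not independent replicates, the points share the same libraries, and no p is attached. The genes that fell furthest were low in GC (CENPE 35.4%, HMMR 36.3%, SMC4 37.4%), and those that rose or did not pass were mostly high (CDC25B 59.1%, INCENP 58.8%, PLK1 57.1%, ESPL1 57.0%, FOXM1 55.7%, AURKB 55.6%). The median was 42.7% for the 50 genes and 47.6% for tested genes.

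With each library's trend over GC content and length removed, the median falls were smaller and, among the 50 genes, falls were called more often with CSC and BaP. Single genes went either way. With CSC, CENPE went from -0.90 to -0.58 and CDC20 from -0.17 to -0.49. With CSC, 47 genes fell and 1 rose (15.7% and 16.2% of all genes), with BaP 43 fell and 0 rose (12.5% and 12.3%), and with NNK 33 fell and 0 rose (9.05% and 9.05%). The medians were -0.36, -0.27 and -0.19. Across the 50 genes, r with GC content was 0.21, 0.01 and 0.30 after its removal. The order of the role groups changed with each chemical, and the mitotic kinases and passenger proteins no longer changed least. With BaP, PLK1, AURKA, AURKB, BIRC5, INCENP and CDCA8 stood at -0.288, -0.375, -0.264, -0.389, -0.352 and -0.387. The kinetochore genes CENPA, CENPE, CENPF, NDC80, NUF2 and SPC25 stood at -0.286, -0.451, -0.327, -0.259, -0.280 and -0.279 with BaP. With CSC the same kinase and passenger genes stood at -0.234, -0.463, -0.278, -0.521, -0.382 and -0.614. The midzone genes KIF20A, KIF20B, KIF23, KIF14, PRC1, ANLN and ECT2 stood at -0.475, -0.376, -0.322, -0.284, -0.502, -0.261 and -0.228 with CSC. PLK1 then stood at -0.23 with CSC (limma adjusted p = 0.00313), -0.29 with BaP (0.000258) and -0.16 with NNK (0.0713), and INCENP at -0.38 with CSC. The 4 rises with NNK turned negative: ESPL1 to -0.06, FOXM1 to -0.02, CDC25B to -0.14 and INCENP to -0.16. The rise of CDC25B stayed past the threshold with CSC (0.17, limma adjusted p = 8.19e-06) and not with BaP (0.03, 0.511), and the fall of CCNB1 with CSC and BaP (-0.14 and -0.17) and not with NNK (-0.03, limma adjusted p = 0.698). Which of the changes before and after removal is nearer to the RNA levels in the cells cannot be told apart here.

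**Figure D4:**
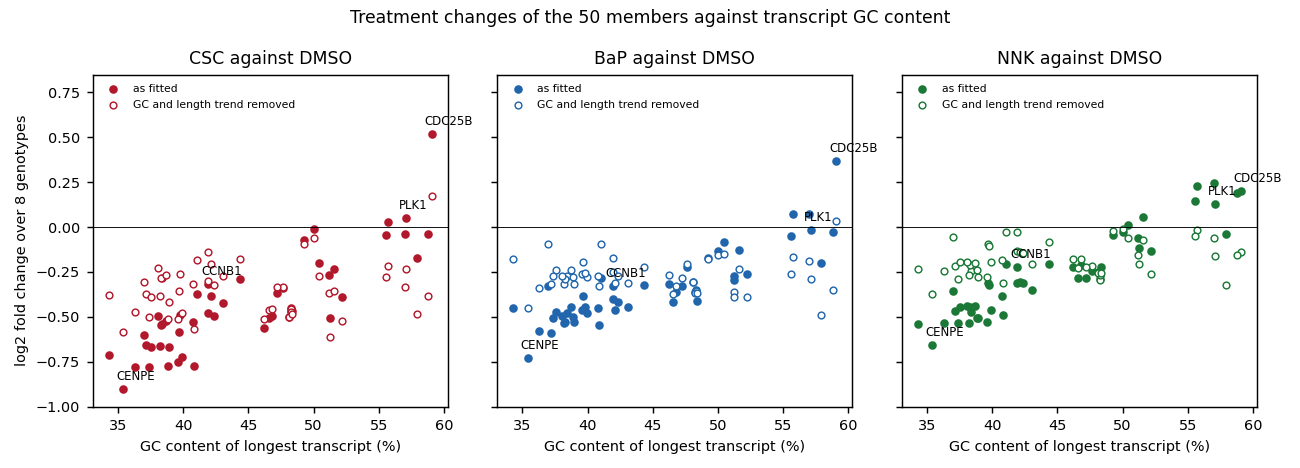
Log2 fold change against DMSO (y axis) of the 50 genes against GC content of the longest transcript (x axis, percent), for CSC, BaP and NNK; filled points are as fitted and open points after the trend with GC content and length was removed. Filled points climb from CENPE (-0.90 with CSC) to CDC25B (0.52), and most open points lie below 0 with little slope.

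Genes with and without the CHR differed in the same direction in the list and among all tested genes, as a description. All tested genes here include the list, and genes outside it were not taken alone. These medians are as fitted, with the GC content and length trend left in, and were not taken with it removed. With CSC, the median change was -0.51 for the 34 listed genes with TTTGAA in their window and -0.32 for the 9 without. For BaP the medians were -0.43 and -0.33, and for NNK -0.34 and -0.22. Among all tested genes, the medians with CSC were -0.10 for the 1461 with TTTGAA and 0.01 for the 9234 without. Of the printed stretches, that of PLK1 holds TTTGAA and that of CCNB1 does not, and other spellings of the CHR were not searched. As fitted, CCNB1 fell with CSC by 0.32 and PLK1 stood at 0.05. With the GC content and length trend removed, CCNB1 stood at -0.14 and PLK1 at -0.23.

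Related gene lists give the setting. Their values are as fitted, with the GC content and length trend left in. Whether their rises would hold after its removal is not given here. Of 65 tested genes on a list of other mitosis genes, 44 fell and 4 rose with CSC (median -0.26), 34 fell and 7 rose with BaP (-0.19), and 38 fell and 10 rose with NNK (-0.17). SGO2 (shugoshin, which guards centromeric cohesion) fell by 0.83, 0.62 and 0.55, and with CSC the chromatin protein HMGB2 fell by 0.87, STMN1 (stathmin, which destabilizes microtubules) by 0.76 and the spindle motor KIF15 by 0.73. ANAPC2, a subunit of the anaphase-promoting complex, rose by 0.69 with BaP and 0.52 with NNK, and FZR1, its activator in the G1 phase, by 0.60 with BaP. FBXO5, an inhibitor of that complex, fell by 0.58 with BaP, and the cohesin subunit SMC3 and the mitotic gene DEPDC1 by 0.51 and 0.49 with NNK.

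Of 36 DNA replication genes, 19 fell and 6 rose with CSC, 18 fell and 6 rose with BaP, and 15 fell and 8 rose with NNK, with medians of -0.20, -0.10 and -0.06. As 26%, 24.4% and 25.8% of all genes fell and 27.4%, 25.9% and 26.3% rose, the falls stood above and the rises below those shares. E2F1, the transcription factor of S phase genes, rose by 0.56, 0.42 and 0.55, and the licensing factor CDT1 by 0.49 with BaP and 0.53 with NNK. With CSC, ORC6 of the origin recognition complex fell by 0.56 and the replication initiation factor MCM10 by 0.50. MCM10 fell by 0.38 and TYMS (thymidylate synthase) by 0.37 with BaP. With NNK the helicase subunit MCM5 rose by 0.39 and the polymerase subunit POLE2 fell by 0.38.

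Of 21 CDK inhibitors and p53 targets, 5 rose and 8 fell with CSC, 8 rose and 4 fell with BaP, and 6 rose and 6 fell with NNK, with medians of -0.04, 0.14 and -0.01. The same shares of all genes apply, and the counts with NNK and the rises with CSC lay near them. CDKN1A, the p21 inhibitor of cyclin-dependent kinases, rose with each chemical, by 0.99 ± 0.04, 0.97 ± 0.04 and 0.68 ± 0.04 (limma adjusted p = 2.23e-44, 3.9e-44 and 1.34e-29). CDKN1C, another such inhibitor, rose by 0.67 with BaP and 0.51 with NNK. SESN2 rose by 0.41 with CSC and 0.44 with BaP, the DNA repair gene DDB2 by 0.40 with BaP and the kinase gene PLK2 by 0.40 with NNK. With CSC the cell death gene BBC3 rose by 0.48 and the E2F repressor E2F7 by 0.43, and BTG2, an antiproliferative gene, fell by 0.45 with NNK.

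The level of these genes also differed between genotypes. In DMSO, the mean log2 CPM of the 50 genes was 7.27 to 7.34 in the 3 CDKN2A libraries and 7.25 to 7.49 in the FAT1 libraries, against 7.61 to 7.67 in GFP, with no overlap. It was 7.97 to 8.01 in PIK3CA libraries against 7.68 to 7.75 in HCRED, also with no overlap. The 2 controls, GFP and HCRED, did not overlap either, at a difference of only -0.07. The differences were -0.34 for CDKN2A, -0.27 for FAT1 and 0.29 for PIK3CA. NRF2 (7.71 to 7.79), FGFR1 (7.65 to 7.79) and NRG1 (7.58 to 7.72) libraries overlapped HCRED. Comparisons with GFP share its 3 libraries and those with HCRED share its 3, so they are not independent of each other.

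In the CDKN2A line, whose targeted gene encodes an inhibitor of the G1 cyclin-dependent kinases, 29 genes were lower and 4 higher than in GFP, where 18.3% and 18.9% of 14540 tested genes were lower and higher. The median was -0.36, against 0.02 over all tested genes. KIF20B was at 190, 168 and 143 CPM against 437, 391 and 397 in GFP, a difference of -1.32 ± 0.09 (limma adjusted p = 1.99e-21). TOP2A was at 1126, 1155 and 1119 CPM against 2604, 2390 and 2299 (-1.12 ± 0.04, limma adjusted p = 4.08e-38). In both genes the groups lay far apart. KIF20A, KIF11, NUSAP1 and SMC2 were lower by over 0.90, and NCAPD2 and CENPF were at -0.83 and -0.82. PLK1 (0.57), CDC25B (0.45), CCNA2 (0.36) and the cytokinesis factor ECT2 (0.19) were higher, and CCNB1 was at -0.24 (limma adjusted p = 0.0189). The 4 higher genes were 2 without CDKN2A replicate 2 and 1 by DESeq2. Of all tested genes, 2741 were higher in full, 2331 without that replicate and 1683 by DESeq2. The summed level of the fibroblast markers was 27.3 to 34.9 CPM in these libraries and 10.6 to 14.7 in GFP, and that of the basal markers 11480 to 11580 and 13960 to 14380, with 5 of 12 basal markers higher and 6 lower. Their part in the result was not tested.

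In the FAT1 line, whose targeted gene encodes an atypical cadherin, 28 genes were lower and 3 higher than in GFP, against 14.3% and 12% of 14266 tested genes, with a median of -0.34 (all tested genes 0.01). The condensin subunit NCAPG was at 101, 139 and 115 CPM against 226, 266 and 254 in GFP (-1.12 ± 0.11, limma adjusted p = 1.34e-10). DLGAP5, CENPE, KIF4A and TOP2A were at -1.03, -0.94, -0.90 and -0.81, and BUB1, NUF2 and SMC4 at -0.78, -0.70 and -0.69. PLK1 (0.47), HMMR (0.45) and NCAPD2 (0.19) were higher, and CCNB1 was at 0.01 (limma adjusted p = 0.968). The 3 higher genes were 1 by DESeq2 and without FAT1 replicate 3, GFP replicate 1 or GFP replicate 2, and 2 without FAT1 replicate 2 or GFP replicate 3. Of all tested genes, 1717 were higher in full, 785 by DESeq2 and 1249 to 1497 in those fits without 1 library. The basal markers summed to 10900 to 11640 CPM against 13960 to 14380 in GFP, with 2 of 12 higher and 9 lower, and their part in the result was not tested.

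In cells overexpressing PIK3CA, a growth-promoting lipid kinase, 22 genes were higher and 0 lower than in HCRED cells, against 4.79% and 3.81% of 14278 tested genes, with a median of 0.23 (all tested genes 0.00). TPX2 was at 1017, 1108 and 1055 CPM against 641, 665 and 590 (0.74 ± 0.06, limma adjusted p = 1.38e-17), and AURKA at 408, 466 and 462 CPM against 289, 261 and 294 (0.64 ± 0.08, limma adjusted p = 2.17e-09). Neither gene overlapped between the groups. KIF20A, UBE2C, CENPE and CCNA2 were at 0.61, 0.59, 0.56 and 0.53, and CDC25C and SPC25, both low in counts, at 0.70 and 0.57. PLK1 was higher by 0.46 ± 0.13 (limma adjusted p = 0.0107), while CCNB1 was at 0.21 (0.101). The count of 22 was 8 by DESeq2, and 11 and 14 without HCRED replicate 1 and PIK3CA replicate 2. Of all tested genes, 684 were higher in full, 253 by DESeq2, and 402 and 523 in those 2 fits. By edgeR and DESeq2, 0 of the 50 genes were lower as well, and 33 had an unadjusted limma p under 0.05. No share of all tested genes at this unadjusted cut stands beside the 33. The basal markers summed to 10310 to 11340 CPM against 15010 to 15720 in HCRED, with 1 of 12 higher and 8 lower, and their part in the result was not tested.

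The other overexpressing lines differed less from HCRED. With NRF2, the regulator of antioxidant genes, 6 genes were higher and 9 lower, against 3.26% and 3.9% of 14035 tested genes, with a median of 0.04. UBE2C (0.64), CDC25C (0.64), KIF20A (0.55) and TPX2 (0.53) were higher, and NUF2 (-0.51), KIF20B (-0.42), NDC80 (-0.40), ECT2 (-0.32), KIF14 (-0.31), SMC2 (-0.26), SMC4 (-0.26) and TOP2A (-0.23) lower. Here too the change went with GC content (r = 0.51 over the 50 genes), and with that trend removed 9 were higher and 1 lower, against 2.9% and 3.21% of all genes. The total of 15 was 6 by DESeq2, and 9, 7 and 8 without HCRED replicate 1, NRF2 replicate 1 and NRF2 replicate 2. Over all tested genes the total of 1005 was 307 by DESeq2, and 668, 567 and 697 in those 3 fits. The 9 lower genes became 3 without HCRED replicate 3, NRF2 replicate 1 or NRF2 replicate 2, 5 without HCRED replicate 1, 2 by DESeq2 and 1 with the GC and length trend removed. Of all tested genes, 548 were lower in full and 258 to 378 in those fits without 1 library. By DESeq2 164 were lower, and with the trend removed 422. PLK1 and CCNB1 were at 0.32 and 0.12 and did not pass.

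With the receptor FGFR1, MKI67 alone passed (-0.19 ± 0.05, limma adjusted p = 0.0115), against 1.09% of 14214 tested genes higher and 0.774% lower, and 7 genes had an unadjusted p under 0.05. MKI67 did not pass by edgeR or DESeq2, which called 0 of the 50 genes with 6 and 3 at an unadjusted p under 0.05. No share of all tested genes at this unadjusted cut stands beside the 7, 6 and 3. MKI67 was also lost without FGFR1 replicate 2, HCRED replicate 1 or HCRED replicate 3, with 0 genes called in each, and without FGFR1 replicate 1, where 1 other gene was called higher. With the replicate number as a block 1 gene was higher and 1 lower. With the ligand NRG1, CENPE (-0.31) and ANLN (-0.29) were lower and NCAPD2 (0.25) higher, against 0.946% of 14053 genes lower and 1.1% higher. Without HCRED replicate 3 or NRG1 replicate 3, 1 gene passed, and without NRG1 replicate 1, 4 were lower. No gene was higher by edgeR or DESeq2, with the replicate block, or in 5 of the 6 fits that left out 1 library, the exception being the fit without HCRED replicate 2. PLK1 and CCNB1 stood at 0.08 and -0.08 with FGFR1 and at 0.21 and 0.04 with NRG1 and did not pass.

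The control cells differed from each other as well. In GFP against HCRED, 8 genes were higher and 12 lower, against 8.76% and 8.95% of 14218 tested genes, with a median of -0.07. PLK1 was at 34.8, 40.3 and 38.0 CPM in GFP against 87.0, 84.9 and 80.7 in HCRED (-1.15 ± 0.17, limma adjusted p = 1.02e-07). HMMR (-0.79), MAD2L1 (-0.78), CCNA2 (-0.50), AURKA (-0.47), UBE2C (-0.45), BIRC5 (-0.43) and TPX2 (-0.32) were also lower, and TOP2A (0.65), NUSAP1 (0.52), CENPF (0.42) and NDC80 (0.40) higher. CCNB1 was at -0.16 (limma adjusted p = 0.219).

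Part of the genotype differences was shared with nearby genes. For each of the 50 genes, the median log2 fold change of 11 to 148 other tested genes within 5 Mb was taken (hg19 positions). Across the 50 genes its correlation with the gene's own change was r = 0.78 for FAT1, 0.77 for GFP against HCRED, 0.70 for NRF2, 0.63 for PIK3CA, 0.60 for CDKN2A, 0.54 for FGFR1 and 0.26 for NRG1. For the treatments, r was 0.49 with CSC, 0.52 with BaP and 0.57 with NNK. The genes share libraries, and neighbouring genes of the list share neighbours.

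Some of the largest values had neighbours that moved alike. NCAPG was at -1.12 in the FAT1 line and its neighbours at -0.99, and PLK1 at -1.15 in GFP against HCRED with neighbours at -0.66. CCNA2 was higher in the CDKN2A line by 0.36 with neighbours at 0.88, and PLK1 higher in the FAT1 line by 0.47 with neighbours at 0.61. Others had neighbours near 0: KIF20B (-0.02) and KIF20A (0.00) in the CDKN2A line and CENPE (-0.03) in the FAT1 line. With the neighbour value subtracted, the median of the 50 genes was -0.43 for CDKN2A (43 below 0), -0.30 for FAT1 (46 below 0), 0.26 for PIK3CA (48 above 0) and -0.01 for GFP against HCRED (26 below 0). For CSC, BaP and NNK it was -0.38, -0.30 and -0.23. The counts below and above 0 were not made for all tested genes, so no general share stands beside them. A gene's own transcript GC content was not taken into account in the subtraction. Copy number was not measured in these data, and its part in the genotype differences was not tested.

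**Figure D5:**
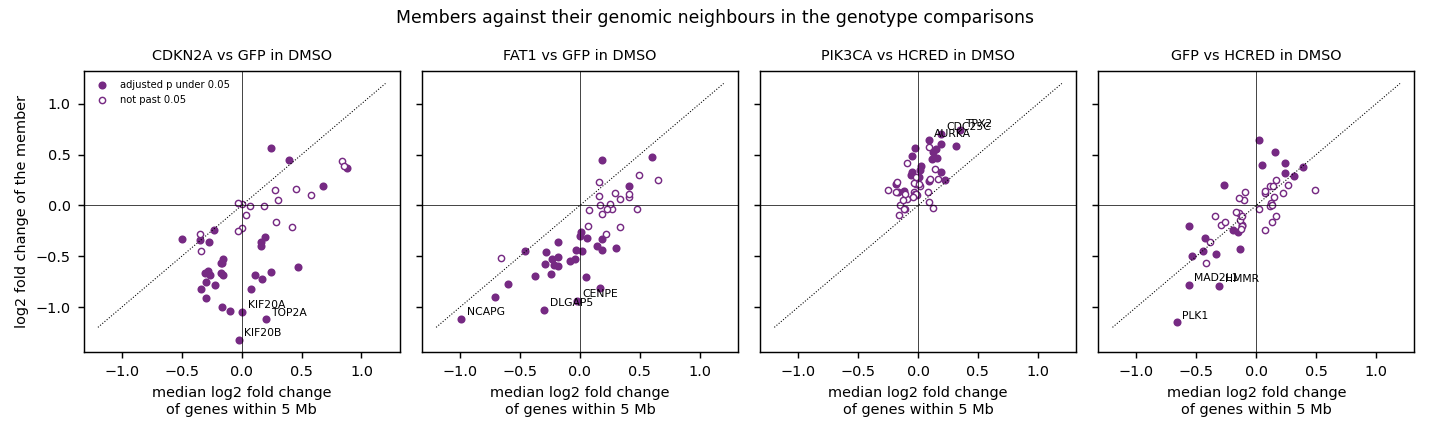
Log2 fold change of each of the 50 genes (y axis) against the median log2 fold change of genes within 5 Mb (x axis, log2) for 4 genotype comparisons in DMSO; filled points passed an adjusted p of 0.05 and the dotted line marks equality. NCAPG in FAT1 cells (-1.12) lies close to the line, and KIF20B in CDKN2A cells (-1.32) far below it.

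Whether the response to a chemical differed between the 8 genotypes was asked with an interaction test (limma F test of 7 terms). With CSC 4 of the 50 genes passed, against 0.779% of all 14384 genes. By edgeR 2 passed, and by limma without replicate 3, 0 passed. Of all tested genes, 112 passed in full, 82 by edgeR and 46 without replicate 3. With BaP 0 passed (12 at an unadjusted p under 0.05, and by edgeR 0, with 8), against 0.327%. With NNK 0 passed (5 at that cut, and by edgeR 0, with 6), against 0.0695%. These percentages are for the adjusted p, and no share of all tested genes at the unadjusted cut is given. UBE2C (limma adjusted p = 0.00167) was at 49.3, 48.2 and 46.9 CPM in CDKN2A cells in DMSO and 29.7, 27.4 and 12.5 with CSC, a difference of -1.07. In FGFR1 cells it was at 94.9, 94.2 and 101 CPM in DMSO and 135 and 134 with CSC, a difference of 0.47. In the first line every CSC library lay below, and in the second above, the DMSO libraries.

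KIF20B (limma adjusted p = 0.00393) was lower with CSC in all 8 genotypes, most in GFP cells (-1.005, from 437, 391 and 397 to 210, 193 and 204 CPM) and least in NRF2 cells (-0.38, from 347, 334 and 341 to 274, 259 and 249 CPM). TOP2A (0.0074 by limma) was also lower in all, from -0.44 in NRF2 cells to -0.91 in PIK3CA cells. PLK1 (0.027 by limma) was higher in GFP cells, from 34.8, 40.3 and 38.0 to 71.4, 56.3 and 42.7 CPM (0.54), and was lower in CDKN2A cells, from 66.9, 62.5 and 45.1 to 33.4, 39.2 and 42.2 CPM (-0.57). The GFP and CDKN2A groups did not overlap between treatments. CCNB1 did not pass with CSC (limma adjusted p = 0.476), BaP (0.871) or NNK (0.922).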

How the data were processed

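Raw read counts per RefSeq gene were deposited for each of 95 AALE samples. Per the labels and methods, the authors trimmed reads with Cutadapt 1.12, checked them with FastQC 0.11.5, aligned them to hg19 with STAR 2.5.2b and counted them with featureCounts, without normalization; the strand setting is not given in the sources used here, so antisense and overlapping genes cannot be separated. The 50 genes, their roles and the other gene lists were chosen with earlier results of these data known.

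Genes with a mean count above 1 were fitted by limma-voom (limma 3.58.1, R 4.3.3) after TMM scaling in edgeR 4.0.16, two-sided, with Benjamini-Hochberg adjustment over all genes fitted at 0.05. Treatments were compared over 95 samples with genotype as covariate, genotypes in DMSO as 3 against 3, and interactions as F tests. CPM used TMM-scaled library sizes, and log2 CPM a prior count of 2. Transcript length, GC content and hg19 positions came from GENCODE lifted to GRCh37, and promoters from RefSeq. Named were CCNB1, PLK1, up to 8 changes in the main and 4 in the other direction per comparison, the most abundant gene of each role, and up to 4 per related list and treatment, of which 1 is not reported here.

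Also tried were edgeR's quasi-likelihood fit, the Wald test of DESeq2 1.42.0, other scaling and filters, a replicate block, removal of each sample's loess trend (span 0.3) with GC content and length, leaving out samples or genotypes, and, chosen after seeing the data, the neighbour values and leaving out 9 libraries under 500000 reads. The scripts were tested on simulated data. Replicates differed by more than sampling noise (chi-square per degree of freedom 1.14 to 2.82 over 94 pairs).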

Additional observations from a re-analysis of the deposited data

Results flagged for a closer look

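The response to CSC differed between the 8 genotypes for 4 of the 50 genes, by the interaction test of limma-voom. UBE2C had an adjusted p of 0.00167, with differences from DMSO running from -1.07 in CDKN2A cells to 0.47 in FGFR1 cells, the latter with 2 CSC libraries. KIF20B had an adjusted p of 0.00393 by limma and TOP2A one of 0.0074, and both were lower with CSC in all 8 genotypes. PLK1 had an adjusted p of 0.027 by limma, and its difference was 0.54 in GFP cells and -0.57 in CDKN2A cells. No gene of the 4 passed without replicate 3. The cause of these differences was not tested.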

How the results depend on the processing

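The counts of genes passing for CSC, BaP and NNK against DMSO (42, 41 and 41) stayed within 1.5 times under every alternative run, and were 41 to 42, 40 to 41 and 39 to 40 with 1 replicate number left out, and 42, 42 and 41 without libraries under 500000 reads. With GC and length trends removed, ESPL1, FOXM1, CDC25B and INCENP with NNK turned to -0.059, -0.019, -0.139 and -0.155; PLK1 passed with CSC and BaP, and CCNB1 no longer with NNK. Leaving out 1 replicate gave 9 to 16 (18 in full) for BaP against CSC and 4 to 12 (10) for BaP against NNK, 7 to 17 (15) for NRF2, 0 to 1 (1) for FGFR1, 1 to 4 (3) for NRG1, 11 to 20 (22) for PIK3CA, and 0 to 4 (4), 0 to 1 (0) and 0 to 1 (0) for the CSC, BaP and NNK interactions. DESeq2 gave 6 for NRF2, 0 for FGFR1, 1 for NRG1, 8 for PIK3CA and 12 (20) for GFP against HCRED. Over all tested genes it gave 307 (1005), 83 (265), 72 (287), 460 (1228) and 989 (2518). edgeR gave 0 for FGFR1 and 2 for the CSC interaction. The 10000 most variable genes held 12 of the 50 genes for FGFR1, with 0 passing, and 14 for NRG1, with 1. A fit of all 95 samples gave 1 for NRG1, beside 175 of all 14384 genes. Genotype terms over all treatments gave 23 for NRF2, 8 for FGFR1, 11 for NRG1 and 31 for GFP against HCRED. Beside them, 3164, 2036, 1798 and 6343 of all 14384 genes passed, so many genes of every kind did. The causes were not tested. Same-numbered replicates did not deviate together (correlations -0.044 to 0.071), so the numbers were not taken as pairs; the replicate block gave 2 for FGFR1 and moved no other of these counts by over 1.5 times. At these depths the genes with about 25 reads have standard errors above 0.09 on the log2 scale for treatments.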

Other observations

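Across the means of the 32 genotype and treatment combinations, the 50 genes mostly moved together, as a description: the median pairwise Pearson r was 0.60, and 1140 of 1225 pairs were positive. ANLN, CDK1 and PRC1 (which bundles midzone microtubules) followed the mean of the other 49 genes most closely, at r = 0.96, 0.96 and 0.95. CCNB1 followed at 0.93, PLK1 at 0.62 and ECT2 at 0.23, and CDC25B ran against it at -0.73. Among the 10062 genes averaging 10 or more reads, the median r with this profile was 0.06 and the 95th percentile 0.71.

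The 10 genes outside the list with the closest profile were KNL1 (the kinetochore scaffold, r = 0.97), TMPO (0.97), CDCA2 (0.95), LMNB1 (lamin B1, 0.94), KIF15 (0.94), SGO2 (0.94), CAPRIN1 (0.93), PRR11 (0.93), CLIP1 (0.93) and KIF18A (0.93). With CSC, KNL1 fell by 0.65, TMPO, a nuclear lamina protein, by 0.52 and LMNB1 by 0.57 (limma adjusted p = 2.15e-24, 1.3e-24 and 3.38e-23). All points share libraries, sequencing depth and transcript GC content as common sources, and nothing about shared control follows from the likeness.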
